A study of Mus musculus with 36 samples.

Results

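The lungs described here are those of mice killed 7 days after 1 intranasal dose of large graphene oxide sheets (L), set against the lungs of mice that received the 5% dextrose carrier alone (D). Graphene oxide is an oxidised form of the single-atom carbon sheet graphene. The libraries were chosen by their labels: 3 of L and 3 of D at day 7, 6 of the 36 in the series, and every gene with enough reads was tested (16903 of the 46078 in the count table). All animals were wild-type female C57BL/6 mice, an inbred laboratory strain, 10 weeks old at day 7. L mice received 50 μg of sheets in 5% dextrose, and D mice 0 μg of sheets in that carrier alone, all under isoflurane anaesthesia. Mice given ultrasmall (US) or small (S) sheets at the same dose and day, and L and D mice of days 1 and 28, served for comparison (3 libraries in each group). The question behind the design is how the lung responds to sheets of different size. The labels do not say which animal gave which library, so a p-value here reflects how these samples vary, which may in part be technical variation. Lung pieces were taken from each lobe away from the large airways.

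Inhaled particles that reach the air spaces are taken up by macrophages, the phagocytes that clear the alveoli. Macrophages that hold much lipid or debris are known for a set of genes that includes Trem2, a surface receptor for lipids, Gpnmb, a glycoprotein of lysosome-rich cells, and Mmp12, a secreted protease that cuts elastin. Lung cells also run a circadian clock. In it the proteins Arntl and Npas2 or Clock, as pairs, switch on genes that carry E-boxes. Among these are the Per genes, whose products shut the pairs off again. Others are the Nr1d genes, whose products, the REV-ERB proteins, repress genes at ROR elements. Dbp, Tef and Hlf are switched on too, and their products bind D-boxes and pass the rhythm on to other genes.

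Total counts per library were 18685818 to 19727986 in L and 17276720 to 19766971 in D. Defining lung genes were high in all 6 libraries: Sftpc, the surfactant protein of type II pneumocytes, stood at 17193 to 27688 CPM (a gene's count scaled to a library of 1000000 counts) in L and 20426 to 25549 CPM in D. On the first principal component of log CPM, which held 35.5% of the variance over the 36 libraries, the L libraries reached at most 43.3 and the D libraries lay between 12.6 and 48.1, with overlap. S day 7 replicate 2 stood apart in depth, at 80566751 counts. Without it in the fit, 24 genes were called in L against D.

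At day 7, 10 clock genes, 3 macrophage genes and 13 genes outside these roles told L and D lungs apart. The edgeR quasi-likelihood test called 26 genes at a Benjamini-Hochberg adjusted p under 0.05 (0.154% of those tested), 15 of them higher in L (0.0887%) and 11 lower (0.0651%). In each of the 26, which were picked for their difference, the CPM ranges of the L and D libraries did not overlap, as in 4.99% of all tested genes with L higher and 2.55% with L lower. An unadjusted p under 0.05 was reached by 458 genes higher in L (2.71%) and 366 lower (2.17%), and the median log2 fold change of all tested genes was 0.00. The count of 26 fell to 17 without D replicate 2 and to 12 without D replicate 3, and DESeq2 called 50. Of the 26 genes, 9 were called whichever of 7 libraries (the 6 compared and S day 7 replicate 2) was left out: Mmp12, Gpnmb, Hlf, Tef, Npas2, Arntl, Bhlhe41, Per3 and Rasl11a. All of these but Tef and Per3 were called in every fit run, 7 genes in all. With only the L and D libraries of day 7 in the fit, 13 of 24 genes lost their call, among them Per3 (adjusted p = 0.0587), Trem2 (0.12), Nr1d2 and Bhlhe40.

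Mmp12, the elastase of macrophages, had the largest rise that could be measured against counts in D. It stood at 211, 54.8 and 121.8 CPM in L libraries 1 to 3, against 4.05, 4.84 and 7.28 CPM in D libraries. Every L library was thus far above every D library, with the highest value in L replicate 1. The rise was 23.7-fold (log2 fold change 4.57 ± 0.49 SE, adjusted p = 4.82e-06), and 15.8-fold without L replicate 1. The gene (ENSMUSG00000049723) spans 7344381 to 7369499 on chromosome 9 of GRCm38, and Mmp1b is annotated across part of it on the other strand.

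Gpnmb had 218, 78.6 and 143 CPM in L, against 17.8, 19.8 and 25.04 CPM in D. The lowest L library was above the highest D library, and the rise was 6.97-fold (log2 2.80 ± 0.46, edgeR adjusted p = 0.00246). Gpnmb (ENSMUSG00000029816) lies on chromosome 6, positions 49036546 to 49070929. Trem2 had 36.5, 12.2 and 16.4 CPM in L, against 6.02, 5.22 and 5.06 CPM in D, a 3.99-fold rise (log2 2.00 ± 0.35, edgeR adjusted p = 0.00366). L replicate 1 again held the highest value, and the Trem2 call was lost without L replicate 1 or D replicate 3 (adjusted p up to 0.118). Without L replicate 1 it was 2.55-fold higher in L. Trem2 (ENSMUSG00000023992) spans 48346401 to 48354147 on chromosome 17. On the TPM scale, which allows for gene length, Mmp12 stood at 83.4 ± 63.6 in L and 2.52 ± 1.05 in D, Gpnmb at 67.1 ± 28.6 in L and 9.50 ± 2.43 in D, and Trem2 at 25.05 ± 15.7 in L and 6.26 ± 0.828 in D (mean ± SD, n = 3 each). By mean TPM, Mmp12 was the most abundant of these 3 messages in L, where its spread covers the mean of Gpnmb, and the least abundant in D.

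The 250 bases before the annotated start of Trem2 are given because AP-1 factors, of which Fos and Jun are members, are textbook activators of macrophage genes and act at a short motif. The motif searched was TGANTCA, on both strands, and its single match is in capitals. It is looser than the textbook AP-1 site, which has C or G at the centre. The match in Trem2, TGAATCA, has A there and is not the textbook site. The sequence is RefSeq's for GRCm38, chr17:48346151-48346400, plus strand, and the match begins at position -9 from the start.
Trem2: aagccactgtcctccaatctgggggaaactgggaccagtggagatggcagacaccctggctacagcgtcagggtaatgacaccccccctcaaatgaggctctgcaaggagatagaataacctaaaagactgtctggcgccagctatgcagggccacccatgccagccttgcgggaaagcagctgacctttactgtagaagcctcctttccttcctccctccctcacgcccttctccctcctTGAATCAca
Of the 26 called genes 21 had a promoter entry. This looser motif was found before a start of 2, Mmp12 and Trem2, beside 6.75% of all 32851 promoter windows. The count is of genes and the percentage of single windows, so they are not in the same unit. A match describes these letters and does not show a bound site.

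**Figure D1:**
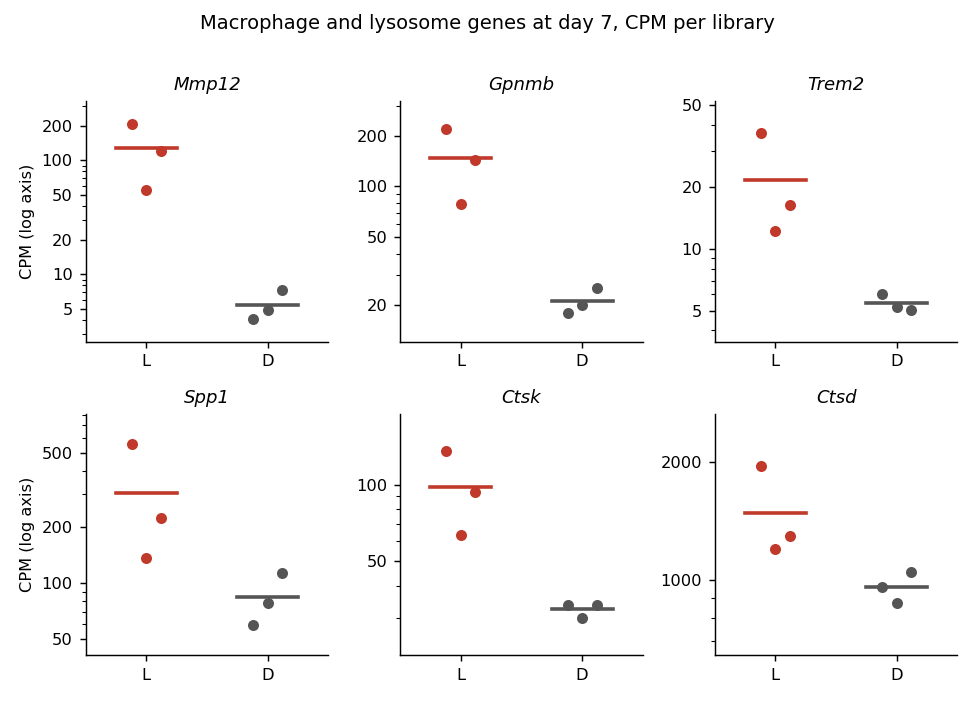
CPM per library on log axes for 6 macrophage or lysosome genes at day 7, L on the left and D on the right, with 1 point per library in the order of replicates 1 to 3 and a line at the group mean. L replicate 1 is the highest point in each panel, and no L point lies within the D range. Mmp12, Gpnmb and Trem2 were called; Spp1, Ctsk and Ctsd were not.

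The wider list of 20 genes of macrophages loaded with lipid or particles held these 3 rises, 0 falls and 17 genes that were not called, with a median log2 fold change of 0.56 and a range of -0.10 to 4.57. Of all genes tested, 0.0887% were called higher. An unadjusted p under 0.05 was reached by 13 members, all with higher values in L (2.71% of all genes tested). In 10 members the L range lay above the D range (4.99% of all genes tested did so). Spp1, which encodes the matrix protein osteopontin, had 554, 136.3 and 223 CPM in L and 59.9, 78.0 and 113.2 CPM in D. Its log2 fold change was 1.87 ± 0.48 with an edgeR adjusted p of 0.182. Ctsk, a collagen-cutting protease of the lysosome, had 135.6, 63.6 and 94.0 CPM in L and 33.5, 30.0 and 33.5 CPM in D (log2 1.58 ± 0.39, adjusted p = 0.14). Itgax, the integrin CD11c, had 111.8, 83.0 and 110.9 CPM in L and 62.9, 56.9 and 67.2 CPM in D (log2 0.69 ± 0.18, adjusted p = 0.187). In these 3 genes, named after their values were seen, every L library was above every D library although none was called. The 3 members with values under 0 were Plin2, a coat protein of lipid droplets (log2 -0.10 ± 0.23), Cd36, a fatty acid carrier (-0.10 ± 0.16), and Cd9, a membrane tetraspanin (-0.07 ± 0.11). The summed level of the list was 5800, 4190 and 4740 CPM in L and 3450, 4090 and 4280 CPM in D, so that L replicates 1 and 3 lay above every D library and L replicate 2 within the D range.

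Of 20 lysosome genes (acid proteases, other hydrolases, membrane proteins and the proton pump) 0 were called, and the median was 0.18. For 9 the unadjusted p was under 0.05, each time with the higher values in L (2.71% of all genes tested did so). Ctsd, an abundant acid protease, had 1959.5, 1204 and 1296 CPM in L and 962, 874 and 1047 CPM in D (log2 0.62 ± 0.19, edgeR adjusted p = 0.444), without overlap. Ctsb, another protease of the lysosome, had 979, 666 and 767 CPM in L and 572, 540 and 595 CPM in D (log2 0.49 ± 0.15, adjusted p = 0.512). Lamp1, a protein of the lysosomal membrane, overlapped between the groups at 1253, 1101 and 1022 CPM in L and 1062, 1045 and 1056 CPM in D. The list summed to 10900, 8060 and 8040 CPM in L and 7250, 7150 and 7410 CPM in D, so every L library was above every D library. In whole-lung RNA, a larger number of cells of a type and more RNA per cell cannot be told apart.

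Markers of the resident alveolar macrophage showed values on both sides of 0. Of 16 members 0 were called and the median was 0.01. The unadjusted p was under 0.05 for 3 that were higher in L (2.71% of all genes tested) and 3 that were lower (2.17%). Siglecf, its sialic acid-binding receptor, had 20.5, 19.5 and 22.5 CPM in L and 18.1, 24.6 and 22.97 CPM in D, and Marco, a scavenger receptor, 43.0, 34.2 and 31.1 CPM in L and 24.7, 21.4 and 39.8 CPM in D. Both overlapped between the groups. Ear1, a ribonuclease of these cells (named after its values were seen), had 50.7, 32.9 and 29.4 CPM in L and 50.4, 67.0 and 53.2 CPM in D (log2 -0.60 ± 0.22, edgeR adjusted p = 0.724). Among 18 genes of recruited monocytes and interstitial macrophages 0 were called, all 18 fitted values were above 0, and the median was 0.21. The largest was Ms4a7 (chosen after its values were seen), a membrane protein of monocyte-derived macrophages, with 21.0, 6.83 and 8.67 CPM in L and 5.90, 6.24 and 4.503 CPM in D (log2 1.13 ± 0.33, adjusted p = 0.395). Ccr2, the chemokine receptor of recruited monocytes, stood at 61.9, 49.1 and 62.9 CPM in L and 51.2, 57.1 and 59.1 CPM in D. Of 10 genes for the uptake of dead cells and the export of lipid 0 were called (median 0.08), and Mertk, an uptake receptor, overlapped between the groups.

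Clock genes were 10 of the 26 calls. Of 22 clock genes over 3 lists (activating arm, repressors and outputs, each gene counted once) 10 were called, 8 higher and 2 lower, and 12 were not. Of all genes tested 0.154% were called, 0.0887% higher and 0.0651% lower. The lists were chosen with earlier results of these data known, so the count is not an independent test. In the list of 6 for the activating arm, which also holds Nfil3, a repressor at D-boxes, 2 fell and the median log2 fold change was -0.81. Npas2, which pairs with Arntl, had 1.82, 1.79 and 2.25 CPM in L, against 10.5, 7.80 and 16.8 CPM in D. It fell to a level 6.06-fold lower in L (log2 fold change -2.60 ± 0.32, edgeR adjusted p = 2.48e-05). Arntl, the shared partner of Clock and Npas2, had 6.03, 6.83 and 9.69 CPM in L, against 26.1, 27.9 and 45.6 CPM in D. Its level was 4.499-fold lower in L (log2 -2.17 ± 0.29, adjusted p = 7.73e-05), and in both genes D replicate 3 was the highest library of the 6. Npas2 (ENSMUSG00000026077) spans 39193731 to 39363236 on chromosome 1, and Arntl (ENSMUSG00000055116) spans 113207465 to 113314126 on chromosome 7. Clock itself overlapped between the groups at 57.2, 65.5 and 75.7 CPM in L and 61.8, 80.6 and 101.4 CPM in D. Nfil3, named after its values were seen, did not overlap, at 5.53, 5.51 and 7.81 CPM in L and 12.4, 10.97 and 22.4 CPM in D, and was not called (log2 -1.30 ± 0.35, adjusted p = 0.245).

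Of 10 clock repressors 5 rose, 0 fell and 5 were not called (median 1.01), with 3 called without D replicate 2 and 2 without D replicate 3. Bhlhe41, which represses at E-boxes, had 37.8, 28.3 and 28.2 CPM in L and 9.72, 11.8 and 9.16 CPM in D, a 3.04-fold rise (log2 1.60 ± 0.20, edgeR adjusted p = 2.48e-05). Its relative Bhlhe40 averaged 96.2 ± 12.1 CPM in L (lowest library 87.0) and 52.0 ± 6.90 CPM in D (highest library 59.6; SD, n = 3 each; log2 0.87 ± 0.16, adjusted p = 0.0095). Both genes were higher in every L library than in any D library. Per3, a period gene, had 68.2, 84.1 and 100.7 CPM in L and 37.2, 35.2 and 18.5 CPM in D (log2 1.45 ± 0.21, adjusted p = 0.00046). Per2, which shuts off the Arntl pairs, had 29.5, 43.6 and 43.3 CPM in L and 12.4, 12.1 and 10.5 CPM in D (log2 1.71 ± 0.34, adjusted p = 0.0189). Nr1d2, which encodes the nuclear receptor REV-ERBβ, had 185, 197 and 217 CPM in L and 89.6, 115.96 and 58.7 CPM in D (log2 1.16 ± 0.21, adjusted p = 0.00501). In Per3 and Nr1d2, D replicate 3 stood lowest and below the other D libraries. The call of Per2 was lost without any 1 D library or L replicate 2 or 3 (adjusted p up to 0.175), that of Bhlhe40 without D replicate 2 or 3 or L replicate 1 (up to 0.118), and that of Nr1d2 without D replicate 3 (0.0913). Nr1d1, a nuclear receptor close to REV-ERBβ (named after its values were seen), had 222, 303 and 254 CPM in L and 145, 108.9 and 67.9 CPM in D without a call (log2 1.25 ± 0.36, adjusted p = 0.355). Per1 ranged from 30.7 to 111.8 CPM in L and from 45.4 to 52.3 CPM in D.

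Of 6 output genes 3 rose and 3 were not called (median 1.05). Dbp, a strongly rhythmic D-box activator, had 168, 142 and 126.03 CPM in L and 34.3, 30.8 and 8.90 CPM in D. All L libraries were above all D libraries, and D replicate 3 was again the lowest. The rise was 5.83-fold (log2 2.54 ± 0.51, edgeR adjusted p = 0.0181), and its call was lost without D replicate 2 or 3 or L replicate 1 (adjusted p up to 0.199). Hlf had 38.5, 47.2 and 46.7 CPM in L and 15.2, 13.7 and 14.3 CPM in D (3.01-fold, log2 1.59 ± 0.19, adjusted p = 2.2e-05), and Tef had 317, 373 and 359 CPM in L and 157, 147 and 127.99 CPM in D (2.39-fold, log2 1.26 ± 0.18, adjusted p = 0.000213). Hlf and Tef were tight within each group. By mean TPM the order in L was Dbp (207 ± 13.6 TPM), Tef (149 ± 26.2 TPM) and Hlf (14.04 ± 2.32 TPM), while in D the order was Tef (60.1 ± 1.77 TPM), Dbp (34.9 ± 16.9 TPM) and Hlf (4.18 ± 0.323 TPM; SD, n = 3 each). On the TPM scale the call of Tef was lost (limma adjusted p up to 0.421). The hour at which lungs were taken is not given in the sources used here, and its part in these values was not tested.

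Promoters of 3 of the called clock genes are given because they hold motifs through which the clock acts. They are RefSeq's for GRCm38, on the strand of the gene, and stop before the next annotated exon of the gene. For Bhlhe41 the sequence is chr6:145865559-145865670 (minus strand), and the E-box CACGTG, in capitals, begins at position -153 from the RefSeq start. For Tef it is chr15:81811164-81811413 (plus strand), before the downstream one of 2 starts, with the E-box at -138. This stretch lies inside the annotated gene, which spans 81802421 to 81826863. For Per3 it is chr4:151044666-151044915 (minus strand), with 2 copies of the D-box TTATGTAA, at -205 and -158.
Bhlhe41: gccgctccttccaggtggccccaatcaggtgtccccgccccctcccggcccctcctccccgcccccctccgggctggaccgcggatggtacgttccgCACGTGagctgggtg
Tef: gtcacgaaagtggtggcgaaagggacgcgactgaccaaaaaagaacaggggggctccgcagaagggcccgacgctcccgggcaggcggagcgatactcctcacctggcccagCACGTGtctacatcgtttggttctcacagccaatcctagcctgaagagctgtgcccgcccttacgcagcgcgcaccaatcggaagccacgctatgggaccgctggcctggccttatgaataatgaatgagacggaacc
Per3: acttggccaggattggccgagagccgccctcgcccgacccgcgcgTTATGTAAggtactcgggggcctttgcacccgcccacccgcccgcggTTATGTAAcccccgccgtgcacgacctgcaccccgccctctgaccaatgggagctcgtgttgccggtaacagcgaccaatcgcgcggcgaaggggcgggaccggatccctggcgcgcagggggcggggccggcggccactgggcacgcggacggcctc
Searched on both strands in the 250 bases before each start, CACGTG was found in 6.02% of all 32851 windows and TTATGTAA (TTACATAA on the other strand) in 0.819%. Of the 8 called clock genes with a promoter entry, 2 held the E-box (Bhlhe41 and Tef) and 1 the D-box (Per3). These counts are of genes, and Tef, with 2 windows, was counted for a match in 1 of them. The percentages are of single windows, so counts and percentages are not in the same unit. The ROR element TAGGTCA, which reads TGACCTA on the other strand and at which REV-ERB proteins act, was found in 0 of the 8 and in 2.23% of all windows. Over all 21 called genes with a promoter entry, the E-box was found before 2, the D-box before 1 and the ROR element before 1, Leo1. These matches are descriptions of the letters only, and the windows are short.

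**Figure D2:**
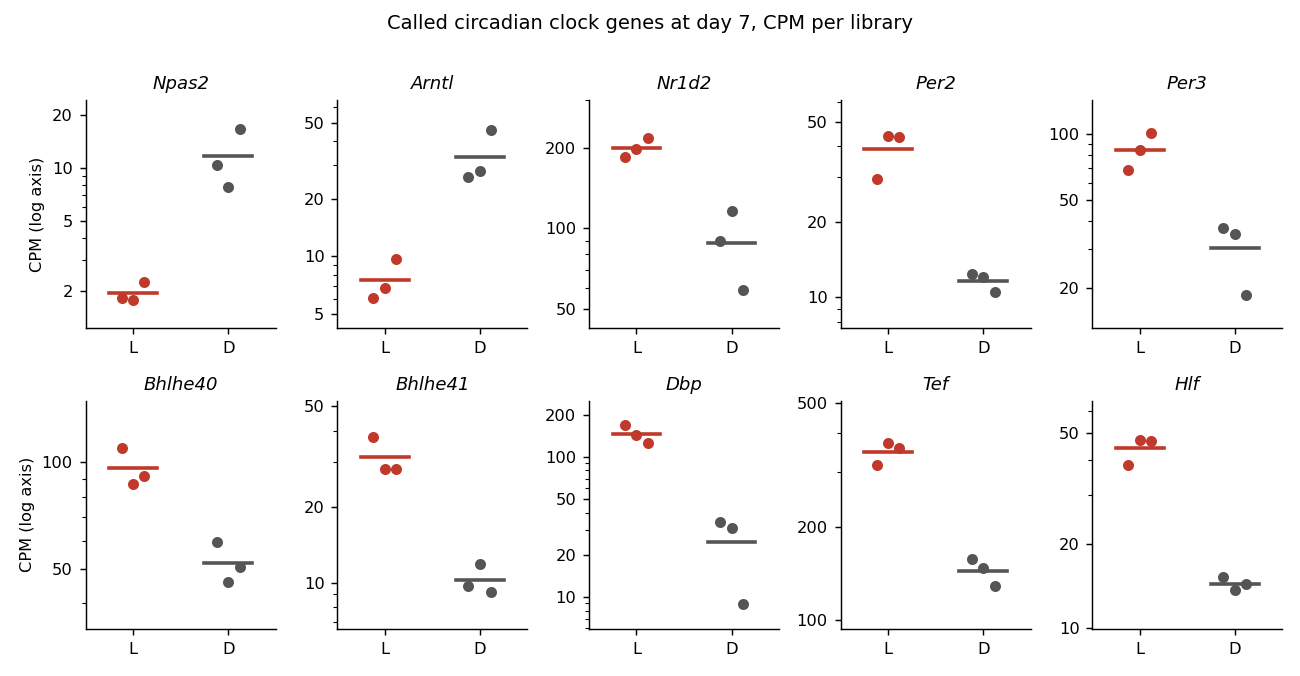
CPM per library on log axes for the 10 called clock genes at day 7, L on the left and D on the right, with 1 point per library in the order of replicates 1 to 3 and a line at the group mean. Npas2 and Arntl are lower in L and the other 8 higher, and in no panel do the groups overlap.

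The remaining 13 called genes fall under no single role. None of them was called in L against the ultrasmall sheets, and 10 were called in L against the small sheets. Of the 4 that rose, Tex11, which in mouse testis is needed for meiosis, had 10.9, 9.87 and 7.49 CPM in L and 3.36, 4.79 and 3.34 CPM in D (log2 1.28 ± 0.22, edgeR adjusted p = 0.00344). Rasd2, a small GTPase, had 7.40, 7.93 and 7.39 CPM in L and 2.89, 3.50 and 3.39 CPM in D (log2 1.19 ± 0.25, adjusted p = 0.0354). Neither gene overlapped between the groups. Npy, the precursor of neuropeptide Y, had 31, 5 and 12 counts in the L libraries and 0 in every D library, which makes it at least 15.5-fold higher in L when D is set to a floor of 3 counts over the group. Ibsp, a sialoprotein of bone matrix, had 48, 6 and 6 counts in L and 0 in every D library, at least 19.4-fold higher in L by the same floor. Their adjusted p-values were 0.0095 and 0.0402, and most counts of both came from L replicate 1. Without that library the bounds were 8.36-fold for Npy (17 counts) and 5.9-fold for Ibsp (12 counts).

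Of the 9 that fell, Spon2, a secreted matrix protein, had 18.1, 18.5 and 21.1 CPM in L and 87.3, 56.0 and 113.7 CPM in D, 4.51-fold lower in L (log2 -2.17 ± 0.38, edgeR adjusted p = 0.00366). It was the single called member of 16 matrix and fibroblast genes, whose median was 0.01. Rasl11a, a small GTPase of the Ras family, had 9.28, 8.61 and 10.2 CPM in L and 27.2, 27.9 and 30.5 CPM in D (log2 -1.63 ± 0.25, adjusted p = 0.000695). In both genes the L libraries were close to each other and far below D. Avpr1a, a receptor of vasopressin, had 0.963, 0.840 and 0.963 CPM in L and 2.43, 2.21 and 3.64 CPM in D (log2 -1.60 ± 0.32, adjusted p = 0.0181). Ccnjl, a relative of the cyclins, was 2.28-fold lower in L (log2 -1.19 ± 0.20), Iyd, which frees iodide from iodotyrosine in the thyroid, 1.91-fold (-0.93 ± 0.19), 5430416O09Rik 1.81-fold (-0.86 ± 0.18), Leo1, a subunit of the PAF1 complex that travels with RNA polymerase II, 1.73-fold (-0.79 ± 0.13), Tob1, a regulator of messenger RNA decay, 1.56-fold (-0.64 ± 0.11), and Glipr2, a Golgi membrane protein, 1.5005-fold (-0.59 ± 0.11). Several of these 13 calls rested on few libraries. Without D replicate 3 the calls of Leo1, Tex11 and Spon2 were lost (adjusted p up to 0.0659), without D replicate 2 that of Tob1 (0.067) and without L replicate 1 that of Ccnjl (0.0595). For Npy and Ibsp the call ended when D replicate 1, 2 or 3 or L replicate 1 was left out, and for Ibsp also when S day 7 replicate 2 was (up to 0.0814 for Npy and 0.272 for Ibsp). Rasd2 lost its call without any 1 of the 6 libraries (up to 0.288), Iyd without any 1 D library or L replicate 1 or 2 (up to 0.205), and 5430416O09Rik without any 1 D library, L replicate 2 or 3 or S day 7 replicate 2 (up to 0.269). Glipr2 lost it without D replicate 1 or 3 or L replicate 2 or 3 (up to 0.232), and Avpr1a without D replicate 3 or any 1 L library (up to 0.217).

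Against the ultrasmall sheets at the same day, L lungs differed in 1 gene by the edgeR test (0.00592% of those tested), beside 2534 genes at an unadjusted p under 0.05 (15%). That gene was Mmp12, with 211, 54.8 and 121.8 CPM in L and between 5.08 and 8.21 CPM in US (log2 4.38 ± 0.48, adjusted p = 8.48e-06). The count was 862 without L replicate 3, 5 without US replicate 2, 3 without L replicate 2 and 0 when only these 2 groups were fitted. Gpnmb (log2 1.79 ± 0.44, adjusted p = 0.318) and Trem2 (1.73 ± 0.34, adjusted p = 0.101) were not called. None of the 10 clock genes called against D was called against US, with log2 fold changes of -0.44 to 0.33 and adjusted p-values of 0.486 to 0.982 in edgeR. The 95% intervals bound these differences: -0.36 to 0.38 for Hlf, -0.55 to 0.92 for Npas2, -0.96 to 0.24 for Arntl and -0.63 to 1.29 for Dbp. Dbp ranged from 102.6 to 131.9 CPM in US, beside 126.03 to 168 CPM in L and 8.90 to 34.3 CPM in D. The 13 genes outside the clock and macrophage roles were not called against US either (adjusted p of 0.101 to 0.925). Of these 13, 3 had an unadjusted p under 0.05. Mean CPM in L, US, S and D was 9.35, 8.80, 25.9 and 28.5 for Rasl11a, and 19.3, 21.3, 66.0 and 85.7 for Spon2. Npy and Ibsp were unlike these, at 0.825 and 1.02 CPM in L and 0.0191 and 0.123 CPM in US.

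Against the small sheets, L lungs differed in 26 genes (0.154%), 13 higher (0.0769%) and 13 lower (0.0769%). The count was 14 without S replicate 2, S replicate 3 or L replicate 1, and 13 without L replicate 2. Mmp12 was 8.92-fold higher in L (log2 3.16 ± 0.44, edgeR adjusted p = 0.000303), with 11.2 to 19.75 CPM in S. Gpnmb and Trem2 did not pass the test (log2 0.57, 95% interval -0.30 to 1.44, and 0.29, -0.37 to 0.95). Gpnmb ranged from 64.4 to 124.2 CPM in S. Trem2 ranged from 13.3 to 22.8 CPM in S. Of the 10 clock genes 7 differed between L and S: Hlf (log2 1.72 ± 0.19), Tef (1.23 ± 0.18), Dbp (2.78 ± 0.51), Per3 (1.44 ± 0.21) and Nr1d2 (1.17 ± 0.21) were higher in L, and Npas2 (-2.36 ± 0.32) and Arntl (-2.12 ± 0.29) lower. Per2 (1.28 ± 0.33), Bhlhe41 (0.71 ± 0.19) and Bhlhe40 (0.60 ± 0.16) were not called there (adjusted p of 0.172 to 0.211). A further 2 genes from the lists were called against S and neither against US nor against D: Cxcl5, a chemokine that draws neutrophils (-4.59 ± 0.80, adjusted p = 0.00441), and Fos, an immediate early factor (-1.66 ± 0.30, adjusted p = 0.00738). The comparisons with US, S and D use the same 3 L libraries, so their values are given side by side and are not independent.

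**Figure D3:**
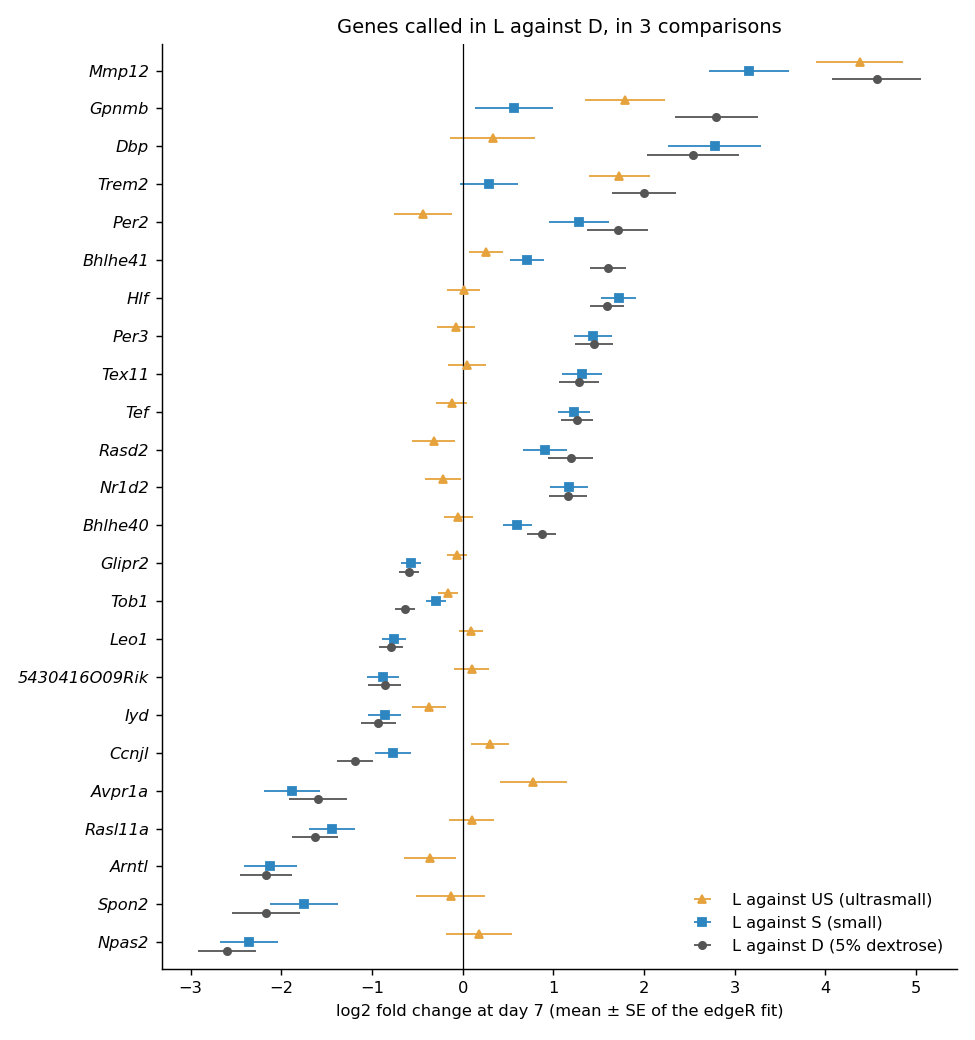
Log2 fold change ± SE from the edgeR fit at day 7 for 24 of the 26 genes called in L against D, shown for L against US, L against S and L against D; Npy and Ibsp, with 0 counts in D, are left out. Mmp12 lies right of 0 in all 3 comparisons. Most clock genes lie near 0 against US and far from 0 against S and D. Of the 13 called genes outside the clock and macrophage roles, Npy and Ibsp among them, 0 were called against US and 10 against S. Gpnmb (0.57) and Trem2 (0.29) are smaller against S than against D (2.80 and 2.00).

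Over the days, Mmp12 in L ranged from 5.79 to 21.9 CPM at day 1, from 54.8 to 211 CPM at day 7 and from 113.2 to 407 CPM at day 28, while D stayed between 4.05 and 8.84 CPM at all 3 days. Gpnmb in L ranged from 24.8 to 58.3, from 78.6 to 218 and from 227 to 774 CPM at these days, and Trem2 from 4.07 to 5.68, from 12.2 to 36.5 and from 19.2 to 51.5 CPM. In the 3 D groups, Gpnmb lay between 15.6 and 29.3 CPM and Trem2 between 2.90 and 6.02 CPM. Whether the effect of L differed between days was tested as an interaction over all genes. No gene was called for day 7 minus day 1 in edgeR, beside 563 at an unadjusted p under 0.05 (3.33%) and 5 by DESeq2. For day 28 minus day 7, edgeR called 0 genes, with 904 at an unadjusted p under 0.05 (5.35%) and 15 by DESeq2. The fitted effect on Mmp12 at day 7 exceeded that at day 1 by 3.40 ± 0.66 on the log2 scale (adjusted p = 0.0904), and that on Gpnmb and Trem2 by 1.84 ± 0.63 and 1.82 ± 0.50 (adjusted p = 1.0 and 0.845). None of these passed the threshold.

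Npy had 1 count over the 3 L libraries of day 1, 48 counts at day 7 and a mean of 2.28 CPM at day 28, and Ibsp had 1, 60 and 39 counts, while both were at 0 counts in all D libraries of the 3 days. Dbp in L ranged from 33.8 to 158 CPM at day 1, from 126.03 to 168 CPM at day 7 and from 48.9 to 78.5 CPM at day 28, and in D from 17.6 to 26.8, from 8.90 to 34.3 and from 3.02 to 3.88 CPM. Of the clock genes, none was called for a difference in the effect between days (adjusted p of 0.17 to 1.0).

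**Figure D4:**
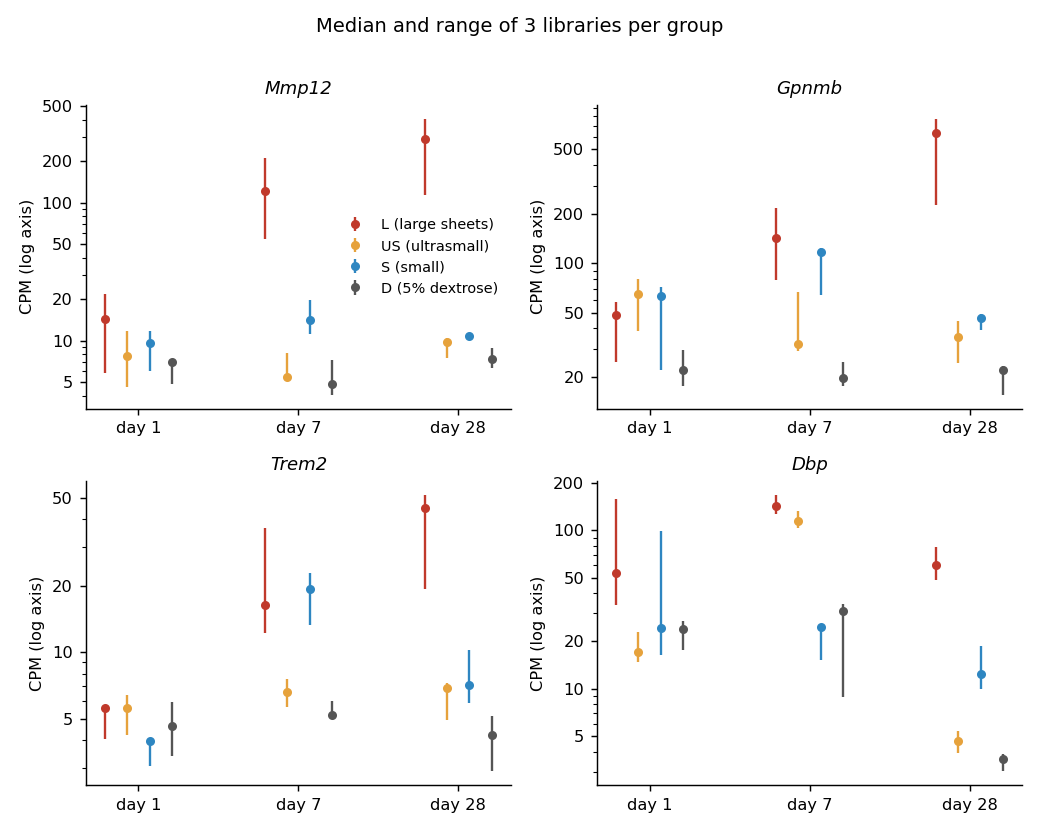
CPM on log axes of Mmp12, Gpnmb, Trem2 and Dbp at days 1, 7 and 28 in L, US, S and D, in that order within a day; points are medians and bars the range of 3 libraries. At day 7 Mmp12 is highest in L, Gpnmb is above D in L, US and S, Trem2 is well above D in L and S, and Dbp is above D in L and US.

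Since the D lungs of day 7 set the baseline, they were compared with the mean of the D lungs of days 1 and 28. They differed in 3161 genes by the edgeR test (18.7%), 1503 higher (8.89%) and 1658 lower (9.81%), and on the TPM scale the split was 479 higher and 2563 lower. The count depended on single libraries: it was 4 without D day 7 replicate 1 and 5 without replicate 2. Of the 26 genes called in L against D, 3 were among them: Dbp (log2 1.47 ± 0.44) and Nr1d2 (0.73 ± 0.18) were higher in the D lungs of day 7 and Per2 (-0.97 ± 0.31) lower. The macrophage genes Mmp12, Gpnmb and Trem2 were not called there (-0.35 to 0.32 on the log2 scale). Both comparisons use the D libraries of day 7. Fat cell genes, a sign of tissue from outside the air spaces, summed to 30.6, 22.5 and 19.8 CPM in L and 41.2, 32.6 and 59.0 CPM in D, and to at most 25.2 CPM in the D libraries of the other days. Adipoq, the defining hormone of fat cells, was detected in all 6 libraries of day 7, at 1.93, 0.473 and 1.02 CPM in L and 1.74, 1.99 and 5.26 CPM in D. Of 9 fat genes tested 0 were called (median -1.38). An unadjusted p under 0.05 was reached by 3, all lower in L (2.17% of all genes tested). In 2 the L range lay below the D range (2.55% of all genes) and in 1 above it (4.99%). The part of this tissue in the other differences was not tested.

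No gene of the lists for acute inflammation passed the test of L against D at day 7. Of 11 neutrophil chemokines and acute cytokines tested (Csf3 and Il17a had too few counts) 0 were called, and the median was -0.18. Cxcl5 stood at 0.507, 0.420 and 0.589 CPM in L and 0.637, 0.807 and 0.658 CPM in D (log2 -0.49 ± 0.98, edgeR adjusted p = 1.0). Of 11 neutrophil markers tested 0 were called (median -0.02), and S100a8, a calcium-binding protein abundant in neutrophils, had 36.04, 58.1 and 24.4 CPM in L and 39.6, 35.8 and 44.0 CPM in D. Cxcl5 was low in all 6 libraries, with the L values just under the D values, and S100a8 overlapped between the groups. Of 13 CC chemokines 0 were called (median 0.17), with Ccl3, an attractant of monocytes, at 4.92, 2.89 and 3.10 CPM in L and 2.37, 2.47 and 1.77 CPM in D (log2 0.71 ± 0.32, adjusted p = 0.981).

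Of 13 acute-phase and mucosal genes 0 were called (median 0.20). Saa3, an acute-phase protein made in inflamed lung, had 14.6, 4.25 and 11.4 CPM in L and 1.22, 1.08 and 1.72 CPM in D (log2 2.89 ± 1.26, edgeR adjusted p = 0.95), and Lcn2, an iron-withholding protein, had 342, 207 and 214 CPM in L and 150, 189 and 163 CPM in D (log2 0.59 ± 0.51, adjusted p = 1.0). In both the L libraries lay above the D libraries, and the SEs show the wide spread the fit gave them. Of 12 chitinase-like and type 2 genes 0 were called (median 0.08). Retnla, a secreted product of alternatively activated macrophages (named after its values were seen), had 516, 175 and 228 CPM in L and 81.7, 81.6 and 93.0 CPM in D without a call (log2 1.84 ± 0.60, adjusted p = 0.581), while Chil3, a chitinase-like protein of macrophages, overlapped at 1430.5, 952 and 1062 CPM in L and 675, 1169 and 1198.5 CPM in D.

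Immune cells other than macrophages showed 0 calls in 4 further lists. The median was -0.22 for 20 interferon-stimulated genes, of which 3 had values above 0. In 4 the L range lay below the D range (2.55% of all genes tested did so). Among them Isg15, a ubiquitin-like protein, stood at 18.7, 21.1 and 24.9 CPM in L and 33.7, 27.6 and 31.2 CPM in D. The median was 0.20 for 20 T and NK cell genes, 0.09 for 16 B and plasma cell genes and -0.10 for 15 genes of MHC class II and dendritic cells. Cd3e, a subunit of the T cell receptor complex, and H2-Aa, a chain of MHC class II, each overlapped between the groups.

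Immediate early genes, which respond within minutes to stimulation or handling, had a median of -0.51 over 17 members with 0 called. An unadjusted p under 0.05 was reached by 5, all lower in L (2.17% of all genes tested). In 7 the L range lay below the D range (2.55% of all genes did so). Fos had 35.2, 43.1 and 69.2 CPM in L and 71.1, 73.3 and 108.8 CPM in D (log2 -0.81 ± 0.30, edgeR adjusted p = 0.762). Of 11 targets of glucocorticoids 0 were called (median 0.06). Fkbp5, a chaperone that glucocorticoids induce, had 27.5, 23.8 and 21.2 CPM in L and 14.4, 17.4 and 17.6 CPM in D (log2 0.54 ± 0.51, adjusted p = 1.0).

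Markers of the cells of the lung wall and airways gave no call. Among 12 type II pneumocyte, 12 type I pneumocyte and repair, 12 club and secretory, 14 ciliated and 14 endothelial genes, 0 were called, and the medians were -0.07, 0.00, -0.08, 0.28 and -0.02. The ciliated list was one-sided, with 12 of 14 values above 0. In 3 members the L range lay above the D range (4.99% of all genes tested did so). Sftpc had a log2 fold change of -0.02 ± 0.21, Ager, a receptor of type I cells, -0.01 ± 0.18, Scgb1a1, the secretoglobin of club cells, -0.24 ± 0.21, and Pecam1, an adhesion protein of endothelium, 0.01 ± 0.10. Bpifa1, a secreted airway protein (named after its values were seen), was uneven, at 24.7, 5.51 and 7.87 CPM in L and 16.96, 25.4 and 160 CPM in D. Dnah5, a motor protein of cilia, had 34.4, 34.8 and 38.4 CPM in L and 23.3, 26.03 and 33.9 CPM in D (log2 0.35 ± 0.14, edgeR adjusted p = 0.919). Of the collagens, Col1a1 had a log2 fold change of -0.05 ± 0.29, Col1a2 0.22 ± 0.24 and Col3a1 -0.12 ± 0.24. Of 13 metalloproteinases and their inhibitors other than Mmp12 0 were called (median 0.18).

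**Figure D5:**
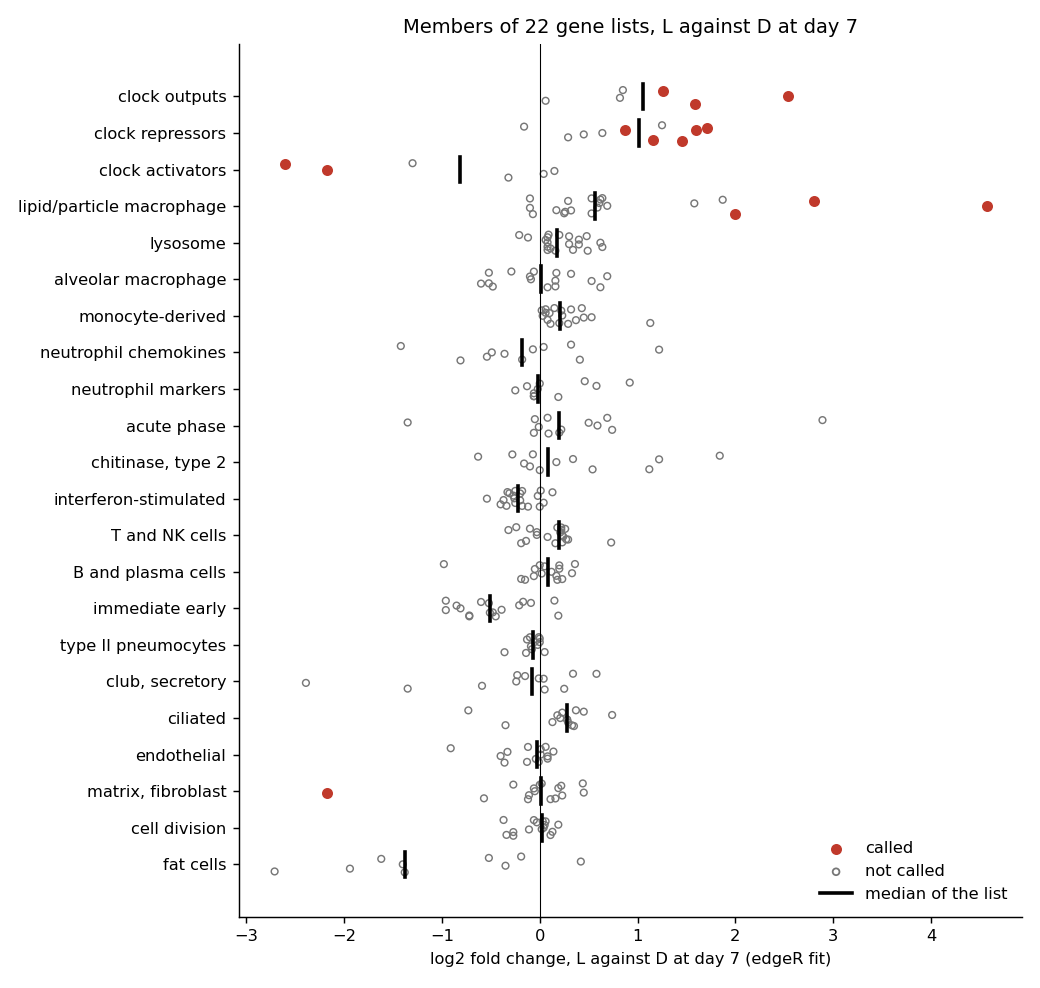
Log2 fold change of L against D at day 7 from the edgeR fit for the tested members of 22 gene lists, 1 point per gene, filled where called, with a bar at the median of each list. Called genes lie in the 3 clock lists (10), the lipid or particle macrophage list (3) and the matrix list (Spon2), and the other lists have none. Fat cell and immediate early genes have the lowest medians among those (-1.38 and -0.51), and recruited monocyte (18 of 18), lysosome (18 of 20) and ciliated genes (12 of 14) lie mostly right of 0, interferon-stimulated genes mostly left (3 of 20 above 0).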

How the data were processed

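Lung RNA was measured by sequencing of stranded polyadenylated libraries, per the labels' protocols. The authors deposited whole read counts per gene, which were tested here, TPM values, used as an alternative and to compare levels between genes, and FPKM and coverage (a read signal), per the file headers, which were not used. The submitters' processing notes list STAR 2.5.1b, featureCounts 1.5.1 and StringTie 1.3.3, without roles, and GRCm38. Neither annotation release nor strand setting is given in the sources used here. For 11 called genes that overlap another annotated gene, reads therefore cannot be apportioned with certainty. Depth is given with the results.

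CPM is a gene's count scaled to a library total of 1000000. Counts of all 36 libraries (12 groups, no covariate) were fitted with edgeR 4.0.16 in R 4.3.3 (filterByExpr, TMM, quasi-likelihood test, two-sided, Benjamini-Hochberg over 16903 genes), tested on simulated data first. The SE is the log2 fold change over the root of F. Alternatives were RLE scaling, other filters, DESeq2 1.42.0, limma 3.58.1 on log2(TPM + 1) or log2(TPM + 0.1) where the gene averaged 1 TPM or more, a replicate block, only the groups compared, and each library left out, S day 7 replicate 2 being added after seeing the data. A pseudocount added to TPM shrinks the fold change of low genes on that scale. Values there were not always smaller than in edgeR: Ccnjl was at log2 -1.34 with TPM + 1 and -2.16 with TPM + 0.1, against -1.19 in edgeR. A gene at 0 in D was set to a floor of 3 counts over the group, which covers counting error only. Gene positions and overlaps are those of the GENCODE M21 annotation.

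The comparison and the 36 gene lists were chosen with earlier results of these data known. Genes were named if called, or among the first 3 measured members of a list, and others are marked as chosen after their values were seen (besides those marked, Plin2, Cd36, Cd9 and the members of the clock lists were chosen so). Replicates of a group differed by more than sampling noise, so none was merged.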

Additional observations from a re-analysis of the deposited data

Results flagged for a closer look

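A set of 19 differences between materials at day 7 is listed because the genes called in L against D also differed between L and another sheet size by the edgeR test of that difference itself. The L against S calls depended on single libraries: their count of 26 was 14 without S replicate 2, S replicate 3 or L replicate 1, and 13 without L replicate 2. Mmp12 was higher in L than in US by 4.38 ± 0.48 on the log2 scale and higher than in S by 3.16 ± 0.44, and it lay above every library of both groups in all 3 L libraries.

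In clock genes, L lungs were higher than S lungs in Hlf (log2 1.72), Tef (1.23), Per3 (1.44), Nr1d2 (1.17) and Dbp (2.78), and lower in Npas2 (-2.36) and Arntl (-2.12). No clock gene was called in L against US, and neither was any of the 13 called genes outside the clock and macrophage roles.

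Outside these roles, L was higher than S in Tex11 (1.32), Npy (3.73) and Ibsp (4.60), and lower in Rasl11a (-1.44), Leo1 (-0.76), Spon2 (-1.75), Glipr2 (-0.57), Avpr1a (-1.88), Iyd (-0.86) and 5430416O09Rik (-0.88). The fitted values of Npy and Ibsp depend on the prior count, since S held 7 and 5 counts over its 3 libraries, against 48 and 60 in L. These counts stand at unlike depth, as S replicate 2 held 80566751 counts in total and all 5 of the Ibsp counts in S. Mean levels were 0.825 CPM in L and 0.0637 CPM in S for Npy, and 1.02 CPM in L and 0.0207 CPM in S for Ibsp.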

How the results depend on the processing

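The 26 genes of L against D kept their direction under every alternative that could be run. They were picked for their difference, and their L and D ranges did not overlap. Refits of the same libraries could thus hardly reverse a direction, and the kept direction says little about stability. The total of called genes, with genes outside the 26 counted too, was 27 under RLE scaling, 36 without a filter and 26 at a mean of at least 1 CPM. It was 50 by DESeq2, and 20 and 22 by limma on log2(TPM + 1) and log2(TPM + 0.1). It was 23 with a replicate block, 19 with only these groups, and 12 to 25 with 1 library left out. Members of the 26 made up 24 of the calls at a mean of at least 1 CPM. They made up 16 and 17 of the calls in these limma fits, and 11 with only these groups. Among the 26 genes, 13 of the 24 that could be fitted lost their call with only these groups. In the limma fits on log2(TPM + 1) and log2(TPM + 0.1) 8 and 7 of 24 lost it, and with the block 3 of 26. L against US gave 3 genes without a filter and by DESeq2, 2 by limma on log2(TPM + 0.1), 0 with only these groups and 1 to 862 with 1 library left out. L against S gave 57 by DESeq2 and 13 to 26 with 1 library left out. The interaction of day 7 minus day 1 gave 2 without a filter, 5 by DESeq2, 1 with a replicate block and 0 to 1 with 1 library left out, and that of day 28 minus day 7 gave 5 without a filter, 15 by DESeq2, 1 by either limma fit, 5 with only these groups and 0 to 3 with 1 library left out. D at day 7 against the other D lungs gave 2075 with a replicate block and 4 to 4561 with 1 library left out. The cause was not tested for any of these moves, other than that leaving out a library leaves fewer samples. Same-numbered L and D libraries of day 7 paired in part: the correlations of their deviations were 0.291, -0.127 and 0.343 for replicates 1, 2 and 3. L replicates 1 and 3 correlated best with the D library of their own number, and L replicate 2 did not. On the first principal component both groups ran in the same order, with replicate 1 highest and replicate 3 lowest. Whether the replicate number marks a shared batch was not tested, other than by the fit with a replicate block.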

Other observations

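Lists not described above held 0 called genes in L against D at day 7. The median log2 fold change was 0.03 for 12 genes of the Nrf2 antioxidant response, in which Hmox1, the haem-degrading enzyme, had 59.4, 51.2 and 53.0 CPM in L and 53.1, 46.7 and 48.3 CPM in D. It was -0.16 for 12 heat shock genes, 0.04 for 14 genes of cholesterol synthesis and uptake, -0.05 for 10 smooth muscle genes and 0.02 for 15 genes of cell division. Mki67, a marker of dividing cells, had a log2 fold change of 0.04 ± 0.35. The median was -0.12 for 10 heart muscle genes tested, -0.16 for 7 red blood cell genes, -0.07 for 6 genes of mast cells, basophils and eosinophils and 0.12 for 4 genes of mesothelium and cartilage.

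Just inside the threshold of 0.05 stood 5430416O09Rik and Ibsp (edgeR adjusted p = 0.0402 each). Just outside it stood Nek2, a kinase of the centrosome, with 24.7 CPM in L and 14.6 CPM in D on average (log2 0.74 ± 0.16, adjusted p = 0.0546), and Tspan4, a membrane tetraspanin, with 83.6 CPM in L and 38.8 CPM in D (log2 1.09 ± 0.24, adjusted p = 0.056). Zbtb16, a transcription factor that glucocorticoids induce, had 15.6, 27.7 and 35.4 CPM in L and 6.48, 3.55 and 5.56 CPM in D without a call (log2 2.30 ± 0.79, adjusted p = 0.631). Il7r, a cytokine receptor of lymphocytes, had 27.4, 24.3 and 39.4 CPM in L and 14.01, 19.4 and 20.4 CPM in D (log2 0.73 ± 0.20, adjusted p = 0.312). These 4 uncalled genes were chosen after their values were seen.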
